A study of Mus musculus with 3 samples.

Results

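The 7 genes described here act in efferocytosis, the engulfment of dying cells by macrophages. They are the receptors Mertk, Axl and Cd300lf, the bridging ligands Gas6 and Pros1, and the engulfment genes Dock1 and Elmo1. They were chosen by name and matched by symbol, and all 7 were found among the 30406 genes shared by the 3 libraries. A dying cell exposes phosphatidylserine on its surface. GAS6 and protein S, the product of Pros1, bind this lipid and bridge it to the TAM receptor tyrosine kinases, of which MERTK and AXL are the macrophage members, while CD300LF binds the lipid directly. DOCK1 and ELMO1 form a complex that activates the GTPase RAC1 and so drives the actin rearrangement of engulfment. In the heart, resident macrophages take up dying cells and material shed by cardiomyocytes, and MERTK is known for its part in both.

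Wild type mice, 32 to 34 weeks old, had been fed a Western diet (WD), a high fat diet (HFD) or a control diet (CD), and RNA was profiled in single macrophages of their hearts. Cells positive for CD45, F4/80 and CD11b were sorted and profiled with 10x Genomics 3′ chemistry. Each diet had 1 library. The sources used here do not give how many mice went into a library, what the diets contained or how long they were fed.

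The values are unique molecular identifiers (UMIs), counts of captured transcripts, summed over cells and given as CPM, the usual scaled share of a gene in all UMIs of the shared genes. A sum falls alike when fewer cells carry a gene and when each cell carries less of it, and the 2 cannot be told apart from the CPM. The chemistry reads transcript ends, so levels are compared between cells and libraries within 1 gene and not between genes. Intervals are 95% intervals that cover counting error only.

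The WD library held 79269380 UMIs, the HFD library 16630481 and the CD library 17464149. Kept barcodes had 1000 UMIs or more, 200 genes or more and no more than 10% mitochondrial UMIs, which left 4775, 2717 and 2679 cells with a median of 11668, 2751 and 4223 UMIs. The mitochondrial limit removed 26.1% of WD, 11.9% of HFD and 6.33% of CD barcodes. No kept barcode was shared between WD and HFD, 1 was shared between WD and CD, and 15 between HFD and CD. The WD library stood apart in another respect. Its counts came from a later version of the alignment software than those of HFD and CD, per the file headers, and its CPM differed from theirs by the length of a gene's introns, as the diet comparisons show.

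Cells in which the complement genes C1qa, C1qb and C1qc together made up at least 0.3% of UMIs were called C1q-high, and these were 3717 WD, 2002 HFD and 2293 CD cells. All 6 macrophage markers (Csf1r, Cd68, Adgre1, Mrc1, Fcgr1 and Cd163) were detected in them in each library, at a summed 4077, 2971 and 2900 CPM. In the other cells the same markers summed to 1428, 350.4 and 525 CPM. The threshold cut through a continuous range in WD, where 444 cells had a C1q share between 0.2% and 0.4%, against 25 in HFD and 27 in CD. Just above the threshold, at 0.3% to 0.4%, Gas6 had 101, 92.9 and 91.1 CPM in WD, HFD and CD, and just below it, at 0.2% to 0.3%, 72.0, 91.9 and 70.2 CPM, on 3 to 9 UMIs in each HFD and CD value.

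C1q-high cells were split by Lyve1, a marker of resident cardiac macrophages, and Ccr2, a chemokine receptor of monocytes and the macrophages derived from them. Cells with a Lyve1 UMI and no Ccr2 UMI, called Lyve1-detected, numbered 2211 in WD, 697 in HFD and 932 in CD. Cells with a Ccr2 UMI and no Lyve1 UMI, called Ccr2-detected, numbered 293, 346 and 440. UMIs of both genes were found in 521, 53 and 199 cells and of neither in 692, 906 and 722. Detection rises with depth. The cells with both had a median of 28267 UMIs in WD, 4528 in HFD and 8465 in CD, and those with neither 8981, 2386 and 3247, whereas Lyve1-detected and Ccr2-detected cells were close in depth, at 12079 and 13357 UMIs in WD, 3283 and 3649 in HFD, and 4701.5 and 4404.5 in CD.

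On the GRCm38 build with GENCODE vM21 annotation, Gas6 lies at chr8:13465374-13494490 on the minus strand, Pros1 at chr16:62854307-62929346 on the plus strand, Mertk at chr2:128698956-128802894 on the plus strand and Axl at chr7:25757273-25788705 on the minus strand. Cd300lf lies at chr11:115116214-115133992 on the minus strand, Dock1 at chr7:134670654-135173639 on the plus strand and Elmo1 at chr13:20090596-20608353 on the plus strand. Genes annotated on the opposite strand overlap all of them except Axl and Pros1, and the sources used here do not say whether counting used the strand. The promoters of Gas6 and Axl, from 250 bases before the start to 50 bases after it, are shown because these genes moved furthest in opposite directions between Lyve1-detected and Ccr2-detected cells. They were read from RefSeq on GRCm38.p6, at chr8:13494486-13494785 for Gas6 and chr7:25788684-25788983 for Axl, both printed 5′ to 3′ along the minus strand. Capitals mark matches on either strand to GGGCGG, the box bound by Sp1 (CCGCCC when read on the other strand), and to GAGGAA, the core bound by the myeloid factor PU.1 (TTCCTC on the other strand).
Gas6: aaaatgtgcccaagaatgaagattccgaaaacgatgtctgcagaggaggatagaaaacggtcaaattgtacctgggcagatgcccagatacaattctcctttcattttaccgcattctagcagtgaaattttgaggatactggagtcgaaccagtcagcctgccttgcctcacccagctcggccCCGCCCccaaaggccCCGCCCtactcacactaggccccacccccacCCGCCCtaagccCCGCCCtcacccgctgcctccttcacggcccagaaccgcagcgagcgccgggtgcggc
Axl: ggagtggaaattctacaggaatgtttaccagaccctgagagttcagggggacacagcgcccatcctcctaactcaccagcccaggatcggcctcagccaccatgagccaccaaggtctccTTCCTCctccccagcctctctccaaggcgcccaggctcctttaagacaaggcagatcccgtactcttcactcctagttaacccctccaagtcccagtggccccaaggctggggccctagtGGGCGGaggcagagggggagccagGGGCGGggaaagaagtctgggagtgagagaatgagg

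The Gas6 promoter held 4 matches to GGGCGG and none to GAGGAA, and the Axl promoter held 2 and 1. Over 32851 promoters of the same length, 35.7% held GGGCGG and 28.3% held GAGGAA. Neither promoter matched TGANTCA (AP-1, in 7.81% of promoters), TGCTGA (the MAF half-site, 19.5%), the interferon-stimulated element (3.44%) or the LXR element of a direct repeat (0.0152%). Both strands were searched, and no matches overlapped in these 2 promoters. Of the other members, Mertk had 4 matches to GGGCGG, Pros1 5, Dock1 3, and Elmo1 3 in 1 of its 2 promoters, and Cd300lf had none. GAGGAA had 1 match in Dock1, 2 in the same promoter of Elmo1 and 2 in Cd300lf.

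Lyve1-detected cells carried more of the ligands Gas6 and Pros1 and of the receptor Mertk than Ccr2-detected cells, and less of the receptor Axl. Gas6 rose about 2.97 on the log2 scale and Axl fell by 1.81. The engulfment genes Dock1 and Elmo1 differed little, with estimates within 0.06 of 0. The test was edgeR's quasi-likelihood test on UMIs summed per library and class, with the library as a block, so that the 3 libraries made 3 pairs. Adjusted p-values are Benjamini-Hochberg values over the 10042 genes tested, and a gene was called at an adjusted p under 0.05. With this rule 23.1% of all genes tested were called, 11.7% higher and 11.5% lower in Lyve1-detected cells, and the median log2 change of all of them was 0.00. Of the 7 genes, 3 were called higher and 1 lower. With the block, the p-values concern how far the difference between the classes varied among 3 libraries that also differ in diet. The test estimates this variation with help from all genes, so a small p does not rest on the 3 pairs of 1 gene alone.

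Gas6, the ligand that binds all TAM receptors, had 323 CPM in WD, 818 CPM in HFD and 750.02 CPM in CD in Lyve1-detected cells, against 31.1, 89.1 and 119 CPM in Ccr2-detected cells. Every Lyve1-detected value lay above every Ccr2-detected value, and WD was the lowest library in both classes. The ratio of Lyve1-detected to Ccr2-detected cells was 10.4 in WD (8.79 to 12.4), 9.18 in HFD (7.66 to 11.1) and 6.29 in CD (5.57 to 7.13). The edgeR log2 fold change was 2.97 (SE 0.148, 95% interval 2.65 to 3.29, adjusted p 1.75e-08).

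Pros1, which encodes protein S, the anticoagulant plasma protein that also bridges phosphatidylserine to MERTK, had 173 CPM in WD, 91.1 CPM in HFD and 118 CPM in CD in Lyve1-detected cells, against 77.0, 55.6 and 49.6 CPM in Ccr2-detected cells. The 2 classes did not overlap, and the ratios within a library were 2.24, 1.64 and 2.39. The log2 fold change in edgeR's test was 1.01 (SE 0.130, 0.73 to 1.29, adjusted p 7.25e-05). Both bridging ligands were thus higher in Lyve1-detected cells in 3 of 3 libraries, Gas6 by the larger factor.

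Mertk, the TAM receptor of tissue macrophages, had 541 CPM in WD, 41.5 CPM in HFD and 33.9 CPM in CD in Lyve1-detected cells, against 299.8, 12.8 and 19.2 CPM in Ccr2-detected cells. The classes overlapped across libraries, because both WD values lay far above the rest, but within a library the Lyve1-detected cells were higher in 3 of 3. The ratio was 1.80 in WD (1.71 to 1.91), 3.24 in HFD (1.95 to 5.67) and 1.77 in CD (1.26 to 2.52), and edgeR's log2 fold change was 0.92 (SE 0.139, 0.62 to 1.22, adjusted p 0.000271). The HFD ratio rests on 103 and 18 UMIs.

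Axl, the TAM receptor that binds GAS6 and is raised by inflammatory signals, ran the other way. It had 61.4 CPM in WD, 45.5 CPM in HFD and 51.7 CPM in CD in Lyve1-detected cells, against 181, 177 and 177 CPM in Ccr2-detected cells. The Ccr2-detected values were nearly the same in the 3 libraries, and all lay above all Lyve1-detected values. Axl was lower in Lyve1-detected cells by 2.95-fold in WD (2.71 to 3.20), 3.88-fold in HFD (3.10 to 4.89) and 3.43-fold in CD (2.92 to 4.04). Its log2 fold change in edgeR's test was -1.81 (SE 0.121, -2.07 to -1.55, adjusted p 2.05e-07).

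**Figure D1:**
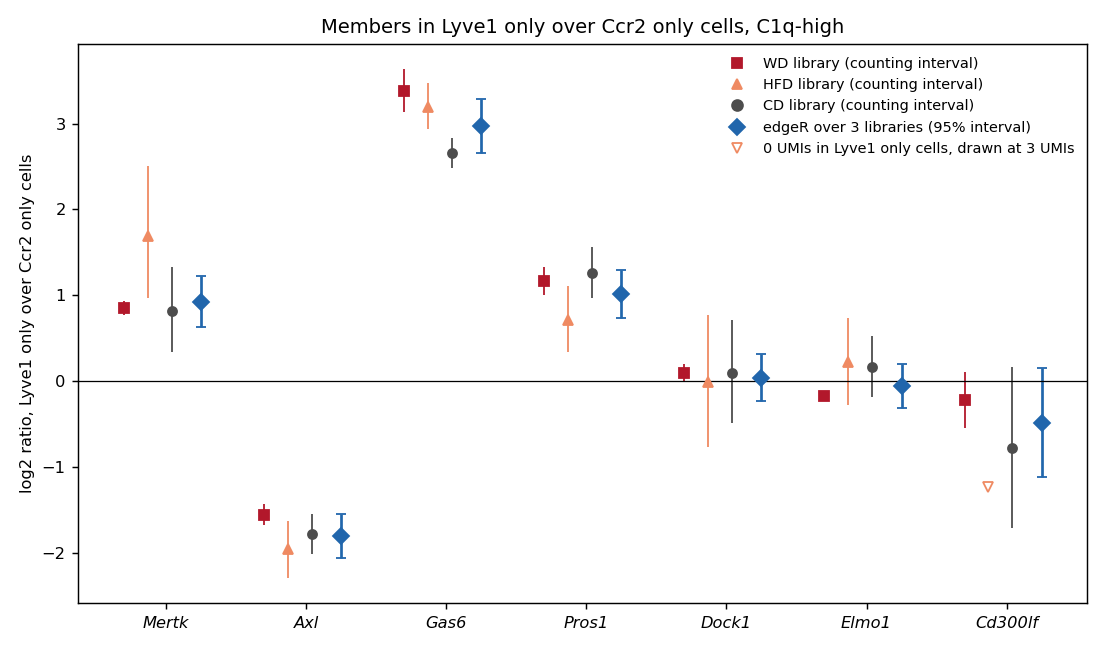
Log2 ratio of CPM in Lyve1-detected over Ccr2-detected C1q-high cells for each gene (y axis), with 1 point per library and its 95% counting interval, and edgeR's estimate over 3 libraries as a diamond with its 95% interval. Gas6 (2.97), Pros1 (1.01) and Mertk (0.92) lie above 0, Axl (-1.81) lies below it, and Dock1 and Elmo1 sit at it. Cd300lf had 0 UMIs in HFD Lyve1-detected cells and is drawn there at the level of 3 UMIs.

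Cd300lf, a CD300 family receptor with an inhibitory tail, was not called. It had 17.9 CPM in WD, 0 UMIs in HFD and 4.97 CPM in CD in Lyve1-detected cells, against 20.9, 2.85 and 8.54 CPM in Ccr2-detected cells. The HFD values rest on 0 and 4 UMIs, and the interval of their ratio reaches up to 0.857. The log2 fold change was -0.49 (95% interval -1.12 to 0.15, adjusted p 0.281 in edgeR's test), and without the WD library it was -1.16 (-2.14 to -0.18, adjusted p 0.0758).

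Dock1, the guanine nucleotide exchange factor of the complex, had 198 CPM in WD, 16.9 CPM in HFD and 16.4 CPM in CD in Lyve1-detected cells, against 185, 17.1 and 15.4 CPM in Ccr2-detected cells. Elmo1, its partner that recruits it to the membrane, had 564 CPM in WD, 42.3 CPM in HFD and 46.9 CPM in CD in Lyve1-detected cells, against 639, 36.3 and 41.9 CPM in Ccr2-detected cells. Within each library the 2 classes stood close together for both genes, while WD lay far above HFD and CD. The edgeR log2 fold changes were 0.04 for Dock1 (95% interval -0.24 to 0.31, adjusted p 0.886) and -0.06 for Elmo1 (-0.31 to 0.20, adjusted p 0.790). These intervals leave room for a change of up to about 0.31 on the log2 scale in either gene. Within WD alone the Elmo1 ratio was 0.882 (0.848 to 0.918), a difference beyond counting error. In HFD it was 1.16 (0.825 to 1.66) and in CD 1.12 (0.879 to 1.44), and both intervals include 1 and the WD ratio.

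Markers of other cells moved with this comparison. The 5 monocyte markers, with Ly6c2, Plac8, Chil3 and Vcan among them, summed to 38.7, 4.03 and 29.0 CPM in Lyve1-detected cells of WD, HFD and CD, against 143, 44.2 and 276 CPM in Ccr2-detected cells, and Ly6c2 and Chil3 were at 0 in HFD Lyve1-detected cells, where 2 of the 5 were detected. The 6 conventional dendritic markers (Flt3, Zbtb46, Xcr1, Clec9a, Cd209a and Itgae) summed to 27.4, 64.1 and 23.8 CPM in Lyve1-detected cells, against 123, 105 and 67.5 CPM in Ccr2-detected cells. Of these 6, between 2 and 6 were detected per library in Lyve1-detected cells and between 3 and 5 in Ccr2-detected cells, and Xcr1, which marks 1 subset of these cells, was at 0 in the Ccr2-detected cells of all 3 libraries. The 6 macrophage markers summed to 4896, 3612 and 3414 CPM in Lyve1-detected cells, against 2245, 1912 and 1966 CPM in Ccr2-detected cells. The 4 erythroid markers, all haemoglobin genes, summed to 132.6, 7.25 and 728 CPM in Lyve1-detected cells of WD, HFD and CD, against 14.6, 5.70 and 32.9 CPM in Ccr2-detected cells, with 4 of 4 detected in each. Monocyte, dendritic, lymphoid and endothelial markers were lower, and macrophage and erythroid markers higher, in Lyve1-detected cells in 3 of 3 libraries. The counting intervals of the 2 classes overlapped in HFD for erythroid, endothelial and lymphoid markers, and in CD for lymphoid markers. The 12 lymphoid markers summed to 50.3, 13.7 and 22.7 CPM in Lyve1-detected cells, against 112, 22.1 and 30.3 CPM in Ccr2-detected cells, and the 9 endothelial markers to 14.5, 122 and 46.0 CPM, against 19.8, 139.7 and 70.9 CPM. The neutrophil markers summed to 1215, 66.5 and 726 CPM in Lyve1-detected cells, against 664, 42.8 and 736 CPM in Ccr2-detected cells, and the fibroblast or mural markers to 26.3, 139 and 20.3 CPM, against 19.4, 34.2 and 67.9 CPM. Both of these lists differed in direction between libraries, although the intervals of the neutrophil markers overlapped in CD. The part of these cells in the differences was not tested.

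The 4 calls held at adjusted p under 0.05 without the WD library, without the HFD library and without the CD library. Without the WD library the log2 fold changes were 2.78 for Gas6, 0.91 for Pros1, 1.03 for Mertk and -1.97 for Axl. When Lyve1 and Ccr2 were called after each cell was thinned to 1000 UMIs, Gas6 fell to a log2 fold change of 2.18. A fit that ignores that 2 sums come from 1 library called none of the 4.

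The cells with both or neither UMI placed the 7 genes between or beside these ends. Gas6 was ordered Lyve1-detected, both, neither and Ccr2-detected in WD, with 196 CPM (189.5 to 203) in cells with both and 97.7 CPM (90.4 to 106) in cells with neither. In HFD the cells with both had 382 CPM (317 to 457) and those with neither 407 CPM (382 to 434), and in CD 435 CPM (405 to 466) and 459.9 CPM (434 to 487), so these neighbours did not differ beyond their intervals. Axl was ordered Ccr2-detected, neither, both and Lyve1-detected in all 3 libraries, at 150.01, 120.2 and 124 CPM in WD, HFD and CD cells with neither and 90.5, 97.9 and 103 CPM in cells with both. Neither and both overlapped in HFD and CD in their intervals for Axl and were apart in WD.

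Pros1 also had its highest level in Lyve1-detected cells and its lowest C1q-high level in Ccr2-detected cells in each library. In HFD its order against cells with both or neither was within counting error, on 25 UMIs in cells with both and 78 in Ccr2-detected cells. Cells with both had 126, 79.0 and 72.5 CPM of Pros1 in WD, HFD and CD, and cells with neither had 95.01, 64.3 and 79.0 CPM. Mertk in cells with neither, at 521, 42.6 and 36.3 CPM, was within the counting interval of Lyve1-detected cells or overlapped it in each library. It was lower in WD cells with both (385 CPM, 376 to 394), and the HFD value in cells with both rests on 2 UMIs. Cd300lf was highest among WD C1q-high cells in those with both, at 34.9 CPM (32.2 to 37.9), and lowest in those with neither, at 9.29 CPM (7.12 to 11.9). The WD cells with both also had the most neutrophil markers of these classes, at 1547 CPM, against 616 CPM in cells with neither. Their monocyte markers were highest as well, at 349 CPM against 21.0 CPM. The part of these markers in the Cd300lf levels was not tested.

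**Figure D2:**
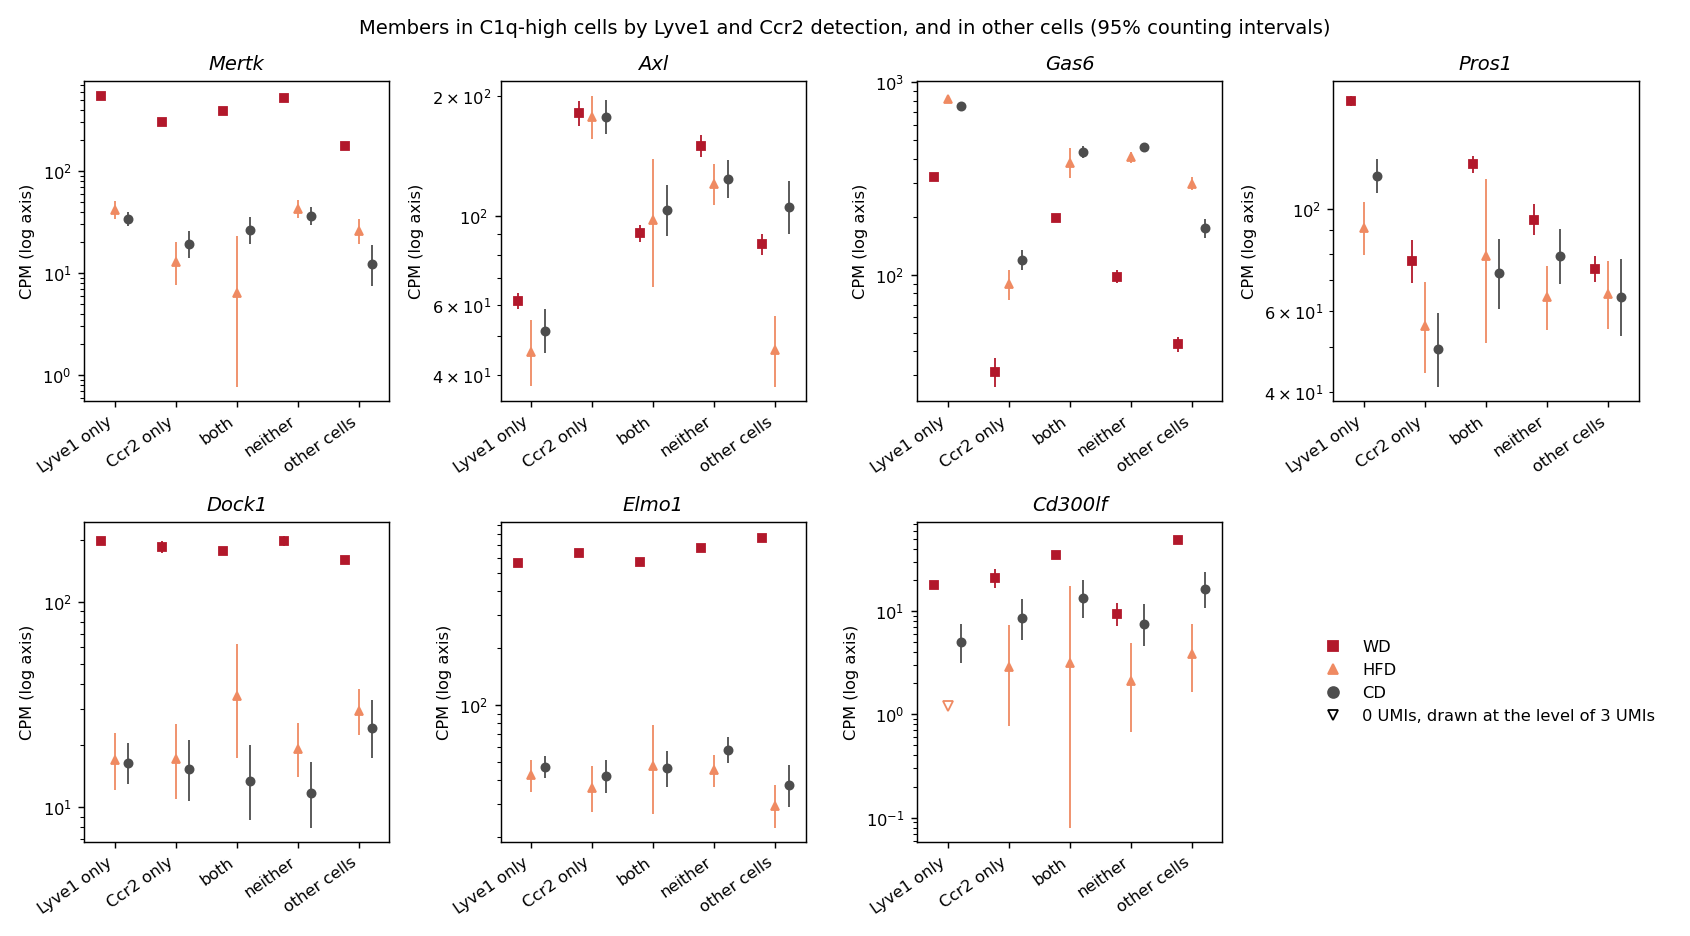
CPM (log axis) of each gene in C1q-high cells with a UMI of Lyve1 only, of Ccr2 only, of both or of neither, and in other cells, with 1 point per library and its 95% counting interval. Gas6 and Pros1 peak in cells with Lyve1 only and Axl in cells with Ccr2 only in all 3 libraries, although for Pros1 in HFD the interval overlaps that of cells with both. WD stands well above HFD and CD in every class for Mertk, Dock1 and Elmo1.

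Shares of cells with a UMI were compared at 1 depth by thinning each cell to 1000 UMIs, and they followed the same split. Gas6 was found in 27.7% (25.9 to 29.6) of WD, 50.6% (46.9 to 54.4) of HFD and 51.2% (47.9 to 54.4) of CD Lyve1-detected cells, against 4.10% (2.13 to 7.04), 10.1% (7.15 to 13.8) and 11.6% (8.75 to 14.96) of Ccr2-detected cells. Without thinning the shares were 87.8%, 85.7% and 90.5%, against 27.3%, 23.1% and 32.0%. Axl was found in 6.06% (5.10 to 7.14), 4.59% (3.16 to 6.42) and 4.29% (3.08 to 5.80) of thinned Lyve1-detected cells, against 20.1% (15.7 to 25.2), 17.6% (13.8 to 22.1) and 14.5% (11.4 to 18.2) of Ccr2-detected cells, and unthinned in 43.5%, 13.3% and 19.4%, against 82.3%, 46.8% and 48.4%. For both genes the intervals of the 2 classes were apart in all 3 libraries.

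Pros1 was found in 15.4%, 10.3% and 11.7% of thinned Lyve1-detected cells of WD, HFD and CD, against 7.85%, 4.05% and 4.77% of Ccr2-detected cells. Mertk was found in 38.7%, 4.02% and 3.33% of Lyve1-detected cells, against 30.4%, 0.867% and 2.73% of Ccr2-detected cells. The Mertk shares of the 2 classes were apart in WD and HFD and overlapped in CD, where the thinned shares stand on few cells. The thinned shares of Dock1 and Elmo1 overlapped between the classes in each library, and no Cd300lf share exceeded 1.04% in either class.

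Free RNA can put a UMI into a cell that does not express the gene. In the 186 WD cells with lymphoid markers, with a median of 7241.5 UMIs against 12242 in WD C1q-high cells, thinned Gas6 was found in 1.08% (0.130 to 3.83), against 20.9% in C1q-high cells, and thinned Axl in 2.15% (0.589 to 5.41), against 8.69%. In the same lymphoid-marked cells Pros1 stood at 2.15%, against 13.1% in C1q-high cells, and Mertk at 1.61%, against 36.5%. HFD and CD had 2 and 11 such cells, too few for a share. There, barcodes with under 100 UMIs gave the level of free RNA, which for Gas6 reached 253 CPM (interval 238 to 268) in the HFD library and 188 CPM (interval 173 to 203) in the CD library. Gas6 in Ccr2-detected cells, at 89.1 and 119 CPM, lay below that level, and in Lyve1-detected cells well above it. Axl in near-empty barcodes had 31.9 CPM in the HFD library and 29.0 CPM in the CD library, below its level in both classes. Mertk in them had 11.02 CPM (8.10 to 14.7) in HFD, which the 12.8 CPM of HFD Ccr2-detected cells did not exceed beyond counting error. Cd300lf in them had 1.88 CPM in HFD, and its 1.52 CPM in all HFD C1q-high cells was no higher. The genes that set the classes were found in near-empty barcodes as well. Lyve1 had 116 CPM in HFD and 85.9 CPM in CD, and Ccr2 had 65.7 and 67.2 CPM. C1qa alone had 3114 CPM in HFD, already past the C1q threshold of 0.3% of UMIs, and 2622 CPM in CD, just short of it. That threshold is on C1qa, C1qb and C1qc together, and C1qb and C1qc were not counted in these barcodes. A UMI of free RNA can therefore also place a cell in a class, and its part in the class assignment was not tested.

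**Figure D3:**
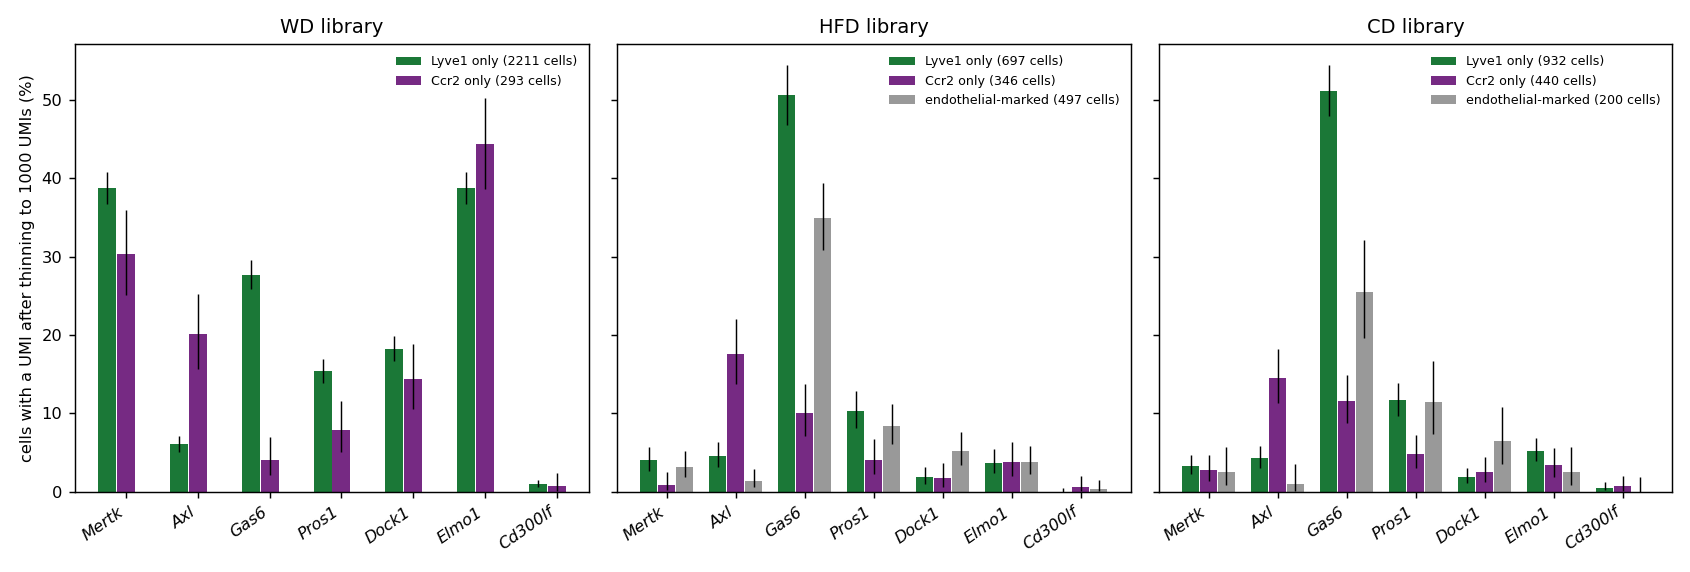
Share of cells with at least 1 UMI of each gene (%, y axis) after thinning each cell to 1000 UMIs, by library, in Lyve1-detected, Ccr2-detected and, in HFD and CD, endothelial-marked cells, with 95% exact intervals. Gas6 bars are taller in Lyve1-detected than in Ccr2-detected cells in all 3 libraries and Axl bars are shorter.

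C1q-high cells had higher fitted levels of Mertk, Gas6 and Pros1 and a lower one of Cd300lf than the other cells, but none of the 7 genes passed the test. In this comparison 7.14% of the 12146 genes tested were called, 2.87% higher and 4.27% lower in C1q-high cells. These were 348 genes higher and 519 lower, against 168 higher and 611 lower without TMM scaling, where the median log2 change of all genes was -0.22 in place of 0.03. The edgeR log2 fold changes were 1.82 for Gas6 (95% interval 0.86 to 2.77, adjusted p 0.0591), 1.30 for Mertk (0.64 to 1.96, adjusted p 0.0553), 0.77 for Pros1 (0.26 to 1.29, adjusted p 0.0899) and -0.94 for Cd300lf (-1.43 to -0.44, adjusted p 0.0593). Unadjusted, edgeR's p was under 0.05 for these 4 genes, and DESeq2 gave them adjusted p-values of 8.17e-05, 0.00104, 0.0253 and 0.0430. Without the WD library, Gas6 (adjusted p 0.00136), Mertk (0.0120), Pros1 (0.0308) and Elmo1 (0.0166) passed in edgeR's test. Of 14 alternatives in all, Mertk passed in 6, Gas6 in 5, Cd300lf in 4, Pros1 in 3, Elmo1 in 1, and Axl and Dock1 in 0. The remaining 3 genes had adjusted p-values of 0.278 (Axl), 0.372 (Elmo1) and 0.861 (Dock1) over the 3 libraries.

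Gas6 had 240.1 CPM in WD, 493 CPM in HFD and 504 CPM in CD C1q-high cells, against 43.4, 297 and 174 CPM in other cells. Mertk had 476, 34.1 and 30.3 CPM in C1q-high cells, against 175, 25.9 and 12.2 CPM in other cells. C1q-high cells were above the other cells of their own library for both genes in 3 of 3 libraries, although the HFD interval of the Mertk ratio (0.974 to 1.81) includes 1. The Gas6 ratio was 5.54 (5.07 to 6.06) in WD, 1.66 (1.52 to 1.81) in HFD and 2.90 (2.57 to 3.27) in CD.

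Axl stood at 88.4, 103 and 102 CPM in WD, HFD and CD C1q-high cells, against 84.9, 46.1 and 105 CPM in other cells, so that the 2 kinds of cell were apart in HFD alone by their counting intervals. Pros1 had 143, 73.2 and 87.9 CPM in C1q-high cells, against 74.2, 65.3 and 64.5 CPM in other cells. Cd300lf was lower in C1q-high cells in each library, at 22.0, 1.52 and 7.64 CPM, against 48.8, 3.84 and 16.4 CPM, although the HFD values rest on 10 and 8 UMIs. Dock1 and Elmo1 differed in direction between libraries, as given in the closing observations.

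The other cells were a different mixture in each library. Of the 1058 WD cells, 186 were lymphoid-marked, 113 neutrophil-marked, 40 fibroblast or mural-marked and 3 endothelial-marked, and 716 met the rule below for none of these 4 classes and are called unmarked, although some UMIs of all 4 marker lists were found in them. Of the 715 HFD cells, 497 were endothelial-marked, 36 fibroblast or mural-marked and 179 unmarked. Of the 386 CD cells, 200 were endothelial-marked, 44 fibroblast or mural-marked and 121 unmarked. A class was assigned when at least 3 of its markers had a UMI and held more UMIs than those of the other classes.

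Gas6 and Axl were not particular to C1q-high cells in level. Endothelial-marked cells had 491 CPM of Gas6 in HFD (451 to 534) and 333 CPM in CD (289 to 380.5), while Axl there was low, at 20.4 CPM (12.9 to 30.6) and 7.81 CPM (2.54 to 18.2). Near-empty barcodes of the same libraries had 253 and 188 CPM of Gas6, as above. Fibroblast or mural-marked cells had 365, 193 and 518 CPM of Axl in WD, HFD and CD, and 329, 359 and 381 CPM of Gas6. In all 3 libraries Axl in these cells lay above its C1q-high level beyond the counting intervals. Unmarked cells had 28.1, 16.1 and 10.2 CPM of Gas6, far below C1q-high cells in each library. They had 82.4, 55.8 and 103 CPM of Axl. Markers of several cell types were found in them. The 6 conventional dendritic markers summed to 492.5, 1690.3 and 1123 CPM in WD, HFD and CD, and the 6 macrophage markers to 1689, 769 and 1019 CPM. The 5 monocyte markers summed to 707, 105 and 669 CPM, and the 4 erythroid markers to 4683, 6.20 and 34.3 CPM.

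Mertk in unmarked cells had 200.2, 7.44 and 5.08 CPM in WD, HFD and CD, below its C1q-high level in each library. Pros1 was spread more evenly, with 88.6 CPM in HFD and 102 CPM in CD endothelial-marked cells and 112, 89.6 and 89.4 CPM in fibroblast or mural-marked cells of WD, HFD and CD. Cd300lf had its highest level in the WD neutrophil-marked cells, at 246 CPM (218 to 277), and no UMI in the fibroblast or mural-marked cells of any library. Dock1 in endothelial-marked cells had 41.7 CPM in HFD (30.6 to 55.4) and 45.3 CPM in CD (30.3 to 65.0), above its C1q-high level of 18.6 and 14.7 CPM. Elmo1 was highest in the WD lymphoid-marked cells, at 1086 CPM, against 584 CPM in WD C1q-high cells.

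**Figure D4:**
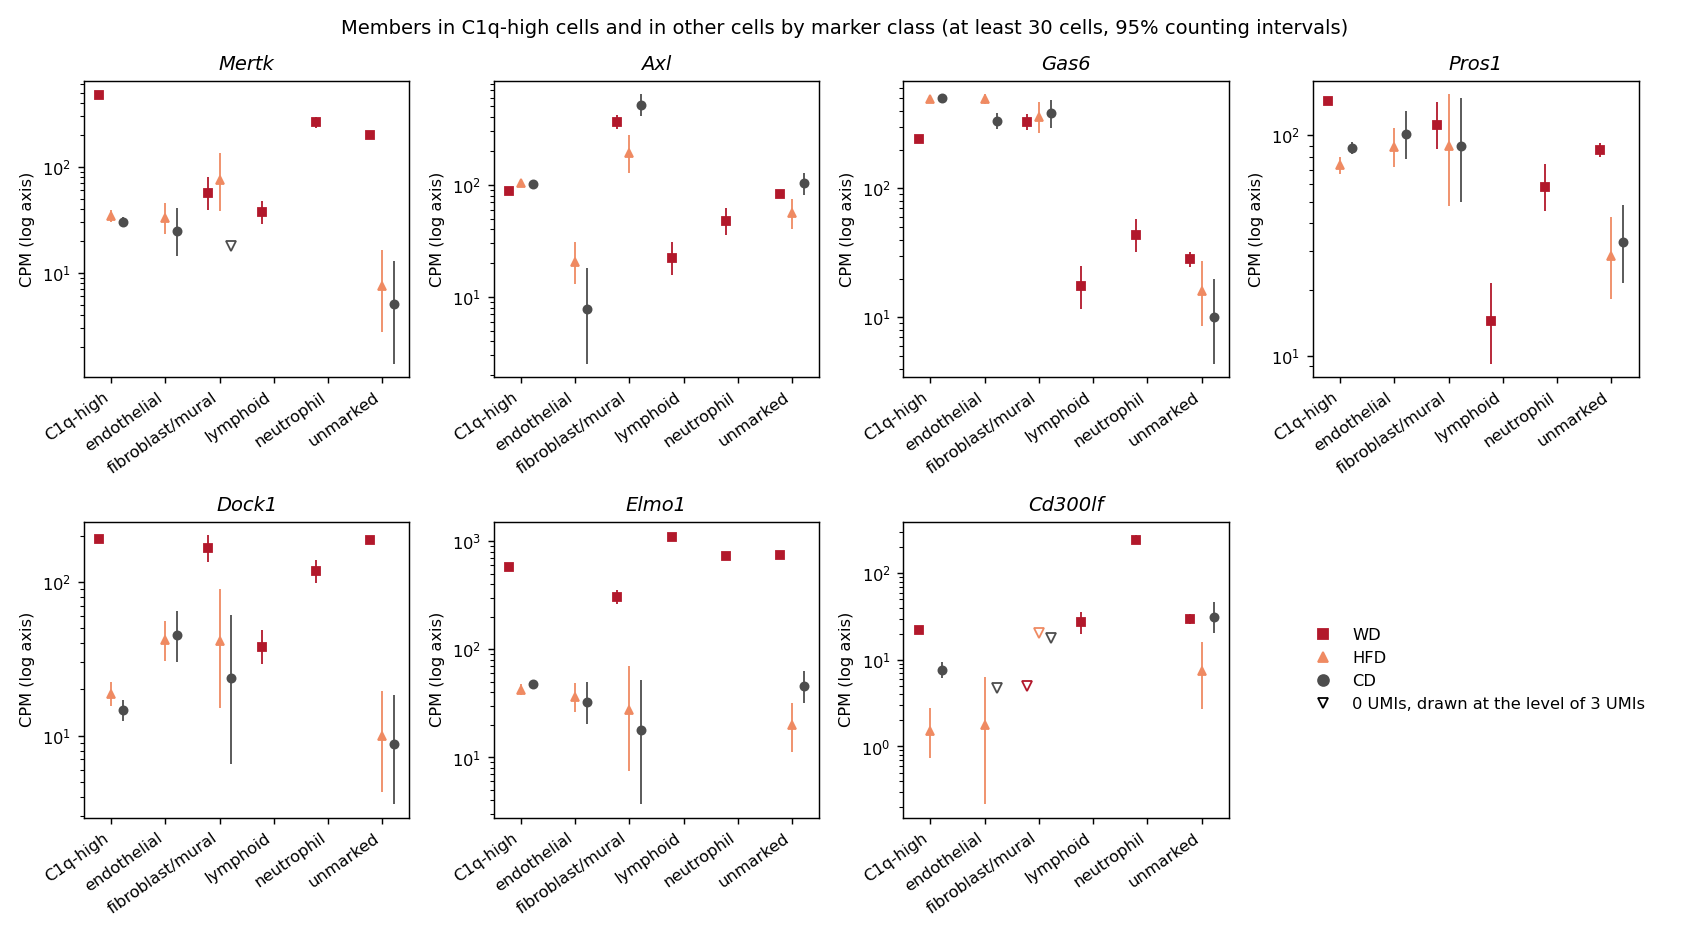
CPM (log axis) of each gene in C1q-high cells and in other cells by marker class, for classes of at least 30 cells, with 1 point per library and its 95% counting interval. Axl is highest in fibroblast or mural-marked cells in all 3 libraries, Gas6 is as high in HFD endothelial-marked cells (491 CPM) as in HFD C1q-high cells (493 CPM), and Cd300lf is highest in WD neutrophil-marked cells (246 CPM).

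Few C1q-high cells were rich in the cardiomyocyte transcripts Tnnt2, Actc1 and Myl2. At a summed share of at least 0.3% of UMIs there were 5 such cells in WD, 10 in HFD and 9 in CD, with 22222, 22306 and 24215 UMIs in all. Gas6 had 225, 448 and 206 CPM in these cells, on 5, 10 and 5 UMIs, against 240.1, 493 and 504 CPM in the cells below the threshold. Mertk had 30 UMIs in the 5 WD cells, or 1350.01 CPM (911 to 1927), against 476 CPM below the threshold (ratio 2.84, 1.91 to 4.05), and 1 and 0 UMIs in the HFD and CD cells. At this size the median log2 change of all genes fitted was -1.12, and the fit, which called 1.95% of 9290 genes (0.484% higher and 1.46% lower in the rich cells) and none of the 6 members it could include, was not read. Gas6 passed this fit under some alternatives, with an adjusted p of 0.0298 in edgeR's test at a C1q threshold of 0.1% and of 0.0149 without the WD library. The median log2 change of all genes was shifted there too, to -0.82 and -1.13, so these alternatives were not read either.

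With the threshold at 0.1% there were 34, 111 and 33 cells. Gas6 then had 221, 483 and 440.3 CPM in cells rich in cardiomyocyte transcripts of WD, HFD and CD, against 240.2, 493 and 504 CPM in poor cells, and Mertk had 522, 35.7 and 18.7 CPM, against 476, 34.0 and 30.4 CPM. All 6 ratios had counting intervals that include 1. Pros1 in WD was the exception among the members, with 215 CPM against 143 CPM and a ratio of 1.504 (1.17 to 1.91). None of the 7 genes passed edgeR's test at this threshold, and their adjusted p-values ran from 0.574 (Axl) to 0.981 (Elmo1 and Dock1). The log2 fold changes were -0.21 for Gas6 (95% interval -0.55 to 0.12), -0.09 for Mertk (-0.53 to 0.36) and -0.40 for Axl (-0.86 to 0.05). The Axl interval reaches further below 0 than the others.

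HFD and CD C1q-high cells, which were counted with the same software version, had close levels of 6 of the 7 genes. Each diet has a single library, so diets could not be tested against each other. A gene was called past the fold at 1.5-fold or more either way with at least 100 UMIs over both libraries, and 8.22% of 8541 genes were, 3.22% higher and 5.0% lower in HFD. Of the 6 members with enough UMIs none was past the fold.

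Gas6 had 493 CPM in HFD and 504 CPM in CD, a ratio of 0.978 (0.937 to 1.02), and Axl 103 and 102 CPM, a ratio of 1.01 (0.915 to 1.11). Mertk had 34.1 CPM in HFD and 30.3 CPM in CD (ratio 1.13, 0.947 to 1.34), Dock1 18.6 and 14.7 CPM (1.27, 0.999 to 1.61) and Elmo1 42.3 and 48.3 CPM (0.876, 0.755 to 1.01). The intervals of these 5 ratios include 1. Pros1 had 73.2 CPM in HFD and 87.9 CPM in CD, a ratio of 0.833 (0.746 to 0.929).

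Cd300lf stood apart from the other 6. It had 10 UMIs in HFD (1.52 CPM) and 87 UMIs in CD (7.64 CPM), and was 5.04-fold lower in HFD (2.61 to 10.9), but its 97 UMIs left it out of the count above. Some markers of other cells moved with it and others did not. In C1q-high cells the 6 neutrophil markers summed to 121 CPM in HFD, with 5 of 6 detected and Mmp8 at 0, and to 814 CPM in CD, with 6 of 6 detected. In WD, where Cd300lf had 22.0 CPM, they summed to 1201 CPM with 6 of 6 detected. The 5 monocyte markers, all detected in each library, summed to 12.9 CPM in HFD and 182.7 CPM in CD, and to 132.6 CPM in WD. The 4 erythroid markers, likewise all detected, summed to 8.49 CPM in HFD and 569 CPM in CD, and to 77.0 CPM in WD. All 3 lists were lowest in HFD, as Cd300lf was, but monocyte and erythroid markers were higher in CD than in WD, unlike Cd300lf. Lymphoid markers were also lower in HFD, at 20.3 CPM against 30.9 CPM in CD. The other lists went the other way between HFD and CD. Endothelial markers had 134 and 73.6 CPM, and fibroblast or mural markers 79.3 and 30.4 CPM. Dendritic markers had 70.9 and 45.4 CPM, cardiomyocyte markers 423 and 176 CPM, and macrophage markers 2971 and 2900 CPM. The part of these markers in the difference was not tested.

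In WD C1q-high cells 5 of the 7 genes were higher and 1 lower than in CD by 1.5-fold or more, and the same numbers held against HFD. The background in these comparisons was wide, with 72.7% of 11800 genes past the fold against CD, 44.5% higher and 28.3% lower, and 71.7% of 11711 genes past it against HFD, 45.0% higher and 26.7% lower. The 2 comparisons share the WD library.

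Mertk had 476 CPM in WD, 34.1 CPM in HFD and 30.3 CPM in CD, and was 15.7-fold higher in WD than in CD (14.1 to 17.5). Dock1 had 190.5, 18.6 and 14.7 CPM and was 12.99-fold higher (11.2 to 15.2), and Elmo1 had 584, 42.3 and 48.3 CPM and was 12.1-fold higher (11.1 to 13.2). For these 3 genes WD stood alone, and HFD and CD lay together. Pros1 had 143, 73.2 and 87.9 CPM and was 1.63-fold higher in WD than in CD (1.53 to 1.74), and Cd300lf had 22.0, 1.52 and 7.64 CPM and was 2.88-fold higher (2.32 to 3.62). Gas6 was 2.10-fold lower in WD than in CD (2.03 to 2.16) and 2.05-fold lower than in HFD (1.97 to 2.13). Axl differed least, at 1.16-fold lower than in CD (1.09 to 1.23).

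The ratios of WD rose with the intron length of the genes. Over all genes with at least 100 UMIs, the median log2 ratio of WD to CD was -0.74 in the lowest decile of intron length, 0.28 in decile 6, 1.72 in decile 9 and 2.67 in decile 10. The corresponding medians of HFD to CD stayed between -0.08 and 0.00. Dock1 has 493656 and Elmo1 505178 bases of intron, which places both in decile 10 of the comparison of WD with CD, and Mertk, with 99603, and Pros1, with 70952, are in decile 9. Gas6, with 26569, and Axl, with 26400, are in decile 6, and Cd300lf, with 12630, is in decile 4. Only 92 of the 6885 WD barcodes (1.34%) occur in the CD list of 737280, so WD used a largely different barcode set. Software version and barcode set changed together with the diet of the WD library. Diet, library preparation and processing therefore cannot be told apart here.

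Relative to the median of their decile, the log2 ratios of WD to CD were 2.25 for Mertk, 1.83 for Cd300lf, 1.03 for Dock1 and 0.93 for Elmo1, and -0.49 for Axl, -1.01 for Pros1 and -1.35 for Gas6. Mertk, at 3.97, lay above the 90th percentile of its decile (3.40), and Gas6, at -1.07, lay below the 10th percentile of its own (-1.02). The other 5 genes lay between the 10th and the 90th percentile in WD to CD. Pros1 thus had a higher CPM in WD than in CD and a ratio below the median of genes of like intron length. In WD to HFD, Mertk (3.80, 90th percentile 3.75) and Gas6 (-1.04, 10th percentile -0.94) again lay outside. Cd300lf lay outside there too, at 3.86 against a 90th percentile of 1.85, on 10 HFD UMIs. This way of reading the ratios was added after the data had been seen.

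**Figure D5:**
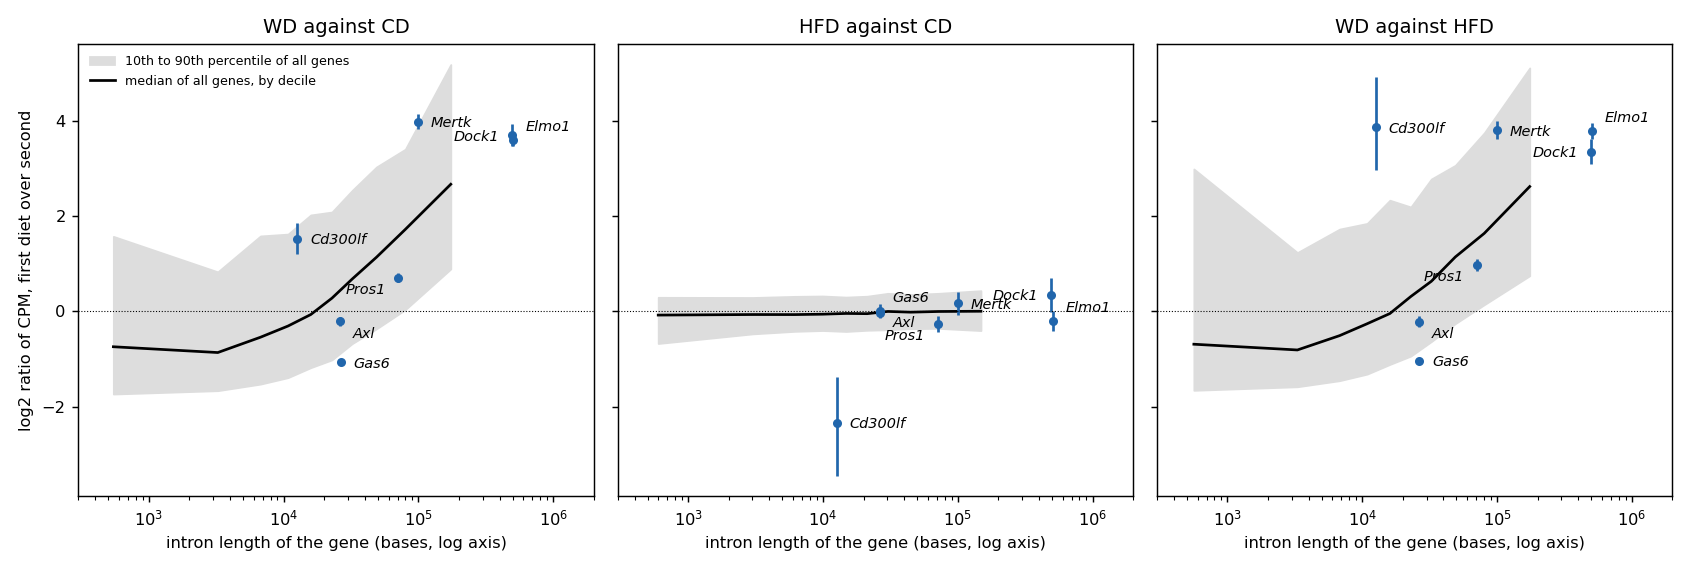
Log2 ratio of CPM between diets in C1q-high cells (y axis) against the intron length of the gene (bases, log axis), for WD over CD, HFD over CD and WD over HFD. Points are the 7 genes with 95% counting intervals, the line joins the medians of all genes by decile of intron length and the band spans the 10th to the 90th percentile. The line rises to 2.67 in WD over CD and is flat in HFD over CD, where Cd300lf alone lies far from the band.

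Within the classes set by Lyve1 and Ccr2 some diet ratios moved. Gas6 in WD was lower than in CD by 2.32-fold in Lyve1-detected cells and by 3.84-fold in Ccr2-detected cells. Axl was 1.19-fold higher in WD than in CD in Lyve1-detected cells (1.04 to 1.36) and stood at a ratio of 1.02 in Ccr2-detected cells (0.904 to 1.15), whereas over all C1q-high cells it was 1.16-fold lower. Mertk was 15.9-fold and 15.6-fold higher in WD than in CD in the 2 classes. In HFD against CD, the Gas6 ratio was 1.09 (1.03 to 1.15) in Lyve1-detected and 0.747 (0.6003 to 0.926) in Ccr2-detected cells. The difference between these classes was not tested. The classes rest on detection at full depth, and Ccr2-detected cells had a median of 13357 UMIs in WD, 3649 in HFD and 4404.5 in CD. Gas6 in HFD and CD Ccr2-detected cells also lay below its level in near-empty barcodes, at 89.1 against 253 CPM and 119 against 188 CPM. The part of depth and free RNA in these ratios was not tested.

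Other genes of the pathway were taken from 6 lists. Of 12 tested among 18 phosphatidylserine receptors and tethers, 4 were higher and 4 lower in Lyve1-detected than in Ccr2-detected cells in edgeR's test, with a median log2 change of -0.07. Over all genes tested the test called 11.7% higher and 11.5% lower, with a median of 0.00. Timd4, the receptor TIM-4 that marks long-lived resident macrophages, had 125, 197 and 186 CPM in Lyve1-detected cells of WD, HFD and CD, against 16.9, 12.1 and 10.3 CPM in Ccr2-detected cells (log2 fold change 3.44, adjusted p 3.43e-08). Stab1, a scavenger receptor that binds phosphatidylserine, rose by 2.0 (adjusted p 3.35e-08) and Msr1, scavenger receptor A, by 1.12 (adjusted p 1.45e-05). Havcr2, the receptor TIM-3, fell by 1.08 (adjusted p 0.00111), although in HFD it had 10.5 CPM in Lyve1-detected and 9.26 CPM in Ccr2-detected cells.

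Of 6 other bridging molecules, 1 was higher and 2 were lower, with a median log2 change of -0.03, where 23.1% of all genes were called in either direction. Edil3, a bridge to integrins, rose by 1.62 (adjusted p 0.00011 in edgeR's test), although it had 134, 6.04 and 3.46 CPM in Lyve1-detected cells of WD, HFD and CD, against 43.7 CPM, 3.56 CPM and 0 UMIs in Ccr2-detected cells. Anxa1 fell by 0.71 (adjusted p 0.00892) and Thbs1 by 0.70 (adjusted p 0.0103), although in HFD Thbs1 had 2.01 CPM in Lyve1-detected and 1.43 CPM in Ccr2-detected cells. Of 12 engulfment genes tested among 16, 2 were higher and 2 lower, beside the same 23.1% of all genes, with a median of -0.13. These were the kinase gene Ptk2 (log2 fold change 1.83) and the adaptor gene Crk (0.37), against the GTPase gene Rac2 (-0.54) and Elmo2 (-0.48).

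Of 5 CD300 genes tested among 10, 1 was higher and 3 were lower in Lyve1-detected cells, with a median of -0.88 on the log2 scale, where 11.7% of all genes were called higher and 11.5% lower. Cd300c2 fell by 1.15 (adjusted p 6.24e-06 in edgeR's test), Cd300lg by 0.91 and Cd300lb by 0.88, and Cd300ld rose by 0.67 (adjusted p 0.00047). Of 12 genes of digestion and cholesterol efflux, 4 were higher and 3 lower, with a median of 0.21, beside the same shares of all genes. The 2 cholesterol exporters moved in opposite directions, with Abca1 at a log2 fold change of 1.503 (adjusted p 1.23e-05) and Abcg1 at -1.13 (adjusted p 2.96e-05), and the nuclear receptor gene Pparg fell by 1.92 while its partner gene Rxra rose by 1.23. Of 9 genes that control the TAM receptors, 2 were higher and 3 lower, with a median of -0.25, again beside 23.1% of all genes called. The transcription factor gene Maf rose by 1.46 (adjusted p 3.59e-07 in edgeR's test), and Socs1, an inhibitor of cytokine signalling, fell by 0.89 (adjusted p 0.0402).

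Between C1q-high and other cells, edgeR's test called 1 of 13 phosphatidylserine receptors, 1 of 6 other bridging molecules, 1 of 14 engulfment genes, 1 of 6 CD300 genes, 3 of 12 digestion genes and 1 of 9 genes of TAM control, where 7.14% of all genes were called. Stab1 (log2 fold change 3.04, adjusted p 0.0280), Cd300ld (2.63, 0.0490), Maf (3.54, 0.0333), Abca1 (2.39, 0.0458), Dnase2a (1.54, 0.0333) and Lipa (0.99, 0.0333) were higher in C1q-high cells, and Thbs1 (-1.78, 0.0380) and Gulp1 (-4.95, 0.0349) lower. Between HFD and CD C1q-high cells, where 8.22% of all genes were past the fold, 2 of 11 phosphatidylserine receptors were past the fold, with Cd36 1.79-fold lower in HFD (1.69 to 1.89) and Cd93 1.501-fold higher, and 1 of 5 other bridging molecules, with Thbs1 3.88-fold lower (2.15 to 7.57). Of the 9 genes of TAM control 4 were past it, and Socs3 was 3.08-fold lower in HFD (2.82 to 3.36) and Socs1 2.90-fold lower (1.82 to 4.81), and the interferon receptor gene Ifnar1 was 1.57-fold higher. Of the genes with at least 100 UMIs in the engulfment list (12 of 16), the CD300 list (5 of 10) and the digestion list (11 of 12), none was past the fold between HFD and CD.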

How the data were processed

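The deposited values are unnormalized UMI counts for each gene in each barcode, per the file headers, which name the 10x Genomics software at version 7.2.0 for WD and 3.0.1 for HFD and CD. Genome build GRCm38 and Seurat are named per the submitters' processing notes. The sources used here do not say whether intronic reads were counted or how animals were pooled. The WD file lists 6885 barcodes, the HFD and CD files 737280 each, and 92 WD barcodes (1.34%) occur in the CD list. Genes were joined by Ensembl ID, which left 30406, and UMIs outside them made up 0.627%, 0.0507% and 0.0486% of the kept cells of WD, HFD and CD.

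Counts were summed per library and class. Classes of the same library were compared with edgeR 4.0.16 (quasi-likelihood test, TMM scaling, filterByExpr, library as block, Benjamini-Hochberg adjustment) in R 4.3.3, with DESeq2 1.42.0 as an alternative. The block pairs 2 sums of 1 library. The tests were also run on simulated counts with known changes that were the same in every library. Such counts cannot show how the tests behave with free RNA, depth-dependent classes or changes that differ between libraries. Intervals were exact Poisson, conditional or Clopper-Pearson intervals at 95%, and a sum of 0 is drawn in figures at a floor of 3 counts per library and class. No doublet caller was applied in the main results, and the highest doublet scores were removed in an alternative. The cardiomyocyte threshold of 0.3% and the Lyve1 and Ccr2 classes were set for this work. The members, the 6 gene lists and the tests were chosen with earlier results of these data known. Besides the 7 members, at most the 4 genes of each list with the largest log2 change among those past the test or fold were named. Some genes of the lists are not reported here.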

Additional observations from a re-analysis of the deposited data

Results flagged for a closer look

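Dock1 and Elmo1 went opposite ways in different libraries between C1q-high and other cells. Dock1 had a ratio of C1q-high to other cells of 1.20 in WD (1.14 to 1.26), against 0.637 in HFD (0.465 to 0.880) and 0.603 in CD (0.425 to 0.874), so that it was higher in C1q-high cells in WD and lower in HFD and CD. Elmo1 had a ratio of 0.762 in WD (0.745 to 0.780) and 1.44 in HFD (1.09 to 1.94), and 1.28 in CD (0.983 to 1.69), where the interval includes 1. These intervals cover counting error only, and with 1 library per diet the difference between libraries was not tested. The other cells were mostly endothelial-marked in HFD and CD and mostly unmarked in WD, and the part of this mixture was not tested.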

How the results depend on the processing

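The 4 calls between Lyve1-detected and Ccr2-detected cells (Gas6, Pros1, Mertk and Axl) kept their direction and an adjusted p under 0.05 in 15 of 16 alternatives, with log2 fold changes of 2.18 to 3.21, 0.79 to 1.19, 0.71 to 1.05 and -1.97 to -1.67 over all 16. The exception was the fit with no replicate block, where adjusted p-values were 0.316, 0.745, 0.99992 and 0.155. Of genes called (2321), that fit gave 0, with 577 at an unadjusted p under 0.05, and DESeq2 gave 1519.

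For C1q-high against other cells (867 called) the counts were 2123 with DESeq2, 1517 with no filter, 0 with no replicate block (1466 at an unadjusted p under 0.05), 1308 at a 5% mitochondrial limit, 1406 and 8 at C1q thresholds of 0.1% and 0.6%, and 0 to 3791 when 1 library was left out (3791 without WD, 0 without HFD and 0 without CD, with 2125 and 1700 at an unadjusted p under 0.05). For cardiomyocyte transcripts (181 called) they were 103 with RLE factors, 116 without TMM, 66 with DESeq2, 109 with no filter, 18 with no replicate block, 371 with the UMI minimum lowered, 37 at 5% mitochondrial, 312 at C1q 0.1%, and 46 to 251 with 1 library left out. Thresholds of 1% for cardiomyocyte transcripts and 0.6% for C1q gave no value there, since a library had no such cells. Without TMM the median of all genes moved to -0.22 between C1q-high and other cells.

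Genes past 1.5-fold numbered 4827 (thinned cells), 16610 (no UMI minimum) and 4927 (Ccr2-detected cells) in WD against CD (8584), 376, 5402, 392 and, over all kept cells, 1257 in HFD against CD (702), and 4588, 16631 and 4534 in WD against HFD (8398). Relative to genes of like intron length, which was added after the data had been seen, the log2 ratio of Pros1 was -1.01 in WD against CD, where it was 0.71, and -0.67 in WD against HFD, where it was 0.97; these reverse by construction, as the median of the decile is subtracted. No paired analysis was possible because each diet has 1 library. Depth limits Cd300lf, with 10 UMIs in HFD C1q-high cells, and the shares of Mertk, Dock1 and Elmo1 in HFD and CD.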

Other observations

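After thinning to 1000 UMIs, the share with Gas6 among C1q-high cells with Axl was 11.1% in WD (7.93 to 15.1), 20.9% in HFD (15.5 to 27.2) and 27.4% in CD (21.5 to 34.0), against 20.9%, 33.9% and 36.6% in all C1q-high cells. Among cells with a UMI of Timd4, the TIM-4 gene, the share with Gas6 was 28.9%, 50.9% and 48.8% in WD, HFD and CD. These are descriptions of sparse counts, and cells of 1 library share their source.

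Across 15 points (3 libraries by 5 classes, log2(CPM + 1) centred within each library) the genes most like Axl among 6839 were Mpeg1 (Pearson r 0.963), H2-Aa (0.955) and Cd74 (0.953), and those most like Gas6 were Aldh7a1 (0.982), Adamtsl5 (0.967) and Serpinb6a (0.959). Pros1 was most like Aldh2 (0.945), Ifitm2 (0.935) and Grap (0.934), and Mertk like Phf20 (0.957), Ncoa3 (0.933) and Bex3 (0.930). Dock1 was most like Trak1 (0.919) and Elmo1 like Sergef (0.852), while Cd300lf, with fewer than 100 UMIs in HFD, was most like Narf (0.921). Among the 7 genes the pair Gas6 and Pros1 had an r of 0.918, and Axl and Gas6 one of -0.71. The points share libraries and depth, and no p is given.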
